A study of Mus musculus with 8 samples.

Results

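Autophagy is the route by which a cell wraps cytoplasm, protein aggregates or worn organelles in a double membrane and delivers them to the lysosome. The ULK kinase complex starts the process, a class III PI3-kinase complex marks the membrane with PI3P, and a pair of ubiquitin-like conjugation systems attaches LC3 and GABARAP proteins to the growing membrane. Receptors such as p62 then bind both the cargo and LC3, and tethers and SNARE proteins fuse the finished autophagosome with the lysosome. In skeletal muscle the pathway is known for its part in protein loss during fasting and disuse, and much of its control acts on proteins rather than on mRNA.

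The autophagy machinery was taken as 39 genes chosen by name for initiation, conjugation, cargo receptors, fusion and transcriptional control, and it was followed through Affymetrix probe sets annotated to exactly 1 gene symbol. Of the 39 genes 33 had such a probe set and 32 had one bright enough to be tested, out of 12393 and 8352 genes in the whole table. Atg10, an E2-like conjugation enzyme, was too dim, and the mitophagy receptor Bnip3l was found only on 3 probe sets that match several genes. Atg9a, Atg4c, Optn, Calcoco1 and Tfe3 had no probe set under their symbols in the annotation used here and were not analysed.

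The arrays compare myotubes formed by C2C12, an established mouse myoblast line, in medium with 2% horse serum. Control myotubes (arrays A to D) were re-fed every 48 h from day 4 of differentiation, whereas starved myotubes (arrays E to H) received no fresh medium for 4 days. Both were harvested on day 8. Both come from the same line, and so share its genotype, and from medium with the same serum level. They differ in the feeding, and with it in how often the medium with its serum was replaced. The labels place the question under muscle atrophy and do not say whether the 4 arrays of a group were separate dishes, so each p-value reflects only how far these arrays scatter, part of which may be technical scatter.

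All levels below are log2 signals after quantile normalization, differences are starved minus control with the standard error of limma's linear model, and n = 4 arrays per group. Called means an adjusted p below 0.05 in limma's test, with Benjamini-Hochberg adjustment over all 13575 probe sets tested, and a gene is represented by its brightest tested probe set. Myotube markers were bright in both groups, with all 8 of 8 tested and a mean level of 12.99 to 13.05 in the control arrays and 12.94 to 12.99 in the starved arrays. Of the 8, 7 had differences below 0 and 1 fell, the intermediate filament gene Des (-0.22, limma adjusted p = 0.0142). Starved and control ranges were apart for 3 of the 8, beside 18.5% of all tested genes. Des and Myh3 (-0.13) lay lower in these 3, and Myog (0.29) lay higher. Neither Myh3 nor Myog passed limma's test (adjusted p = 0.109 and 0.238). Des was not called with median centring (-0.09, adjusted p = 0.737), 75th percentile centring (-0.05, 0.847), no brightness filter (-0.22, 0.0671), no intensity trend (-0.22, 0.151) or the mean of its probe sets (-0.05, 0.744). Of 7 markers of cycling or undifferentiated myoblasts 5 were tested and 2 fell, Cdk1 (-0.82) and Rrm2 (-0.83). Top2a (-0.98), Mki67 (-0.04) and Pax7 (-0.10) did not pass limma's test. The mean level of the 5 was 7.1 to 7.67 in starved arrays against 7.93 to 8.16 in controls. Of 5 smooth muscle or myofibroblast markers 4 were tested and all 4 fell, with mean levels of 9.11 to 9.37 against 11 to 11.18. Of these Acta2 (-0.30) was not called with median centring (-0.18, adjusted p = 0.339), 75th percentile centring (-0.14, 0.403) or without limma's intensity trend (-0.30, 0.0635). Of 4 adipocyte markers 1 was bright enough to test, at 6.63 to 7.47 in controls and 7.01 to 7.42 in starved arrays. The part of these shifts in the results below was not tested, and in bulk RNA fewer cells of a type and less RNA per cell cannot be told apart. Deposited signals were lower on average in the starved arrays, with trimmed means of 243 to 366 against 317 to 455 in the controls. The groups overlapped, and the log2 difference of -0.38 did not pass (two-sided exact permutation p = 0.0857). Control B stood apart with a Gapdh 3' to 5' log2 ratio of 1.4, a possible sign of RNA quality, against -0.23 to -0.04 in the other 7 arrays. The same ratio for Actb did not set it apart, at 0.32 in control B against 0.02 to 0.29 in the other 7 arrays.

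In starved myotubes the mRNA differences of the autophagy machinery were small. Of the 32 tested genes 1 fell, Wipi1, 0 rose and 31 did not pass limma's test. Among all 8352 tested genes 4.25% were called higher and 6.93% lower, or 11.2% in all, against 3.12% of the autophagy genes. At limma's unadjusted p below 0.05 there were 5 of the 32 autophagy genes, a smaller share than the 24.2% of all tested genes at that threshold: Sqstm1, Map1lc3a and Wipi2 on the higher side, Wipi1 and Ulk1 on the lower side. The median difference over the 32 genes was -0.02, beside 0.01 over all tested genes, and the median size of the difference, regardless of sign, was 0.12 beside 0.17. The differences ran from -0.43 (Pik3r4) to 0.36 (Sqstm1). The 95% interval of the difference lay within a 2-fold change in either direction for 31 of the 32 genes (96.9%, beside 91.5% of all tested genes), and Atg4b was the exception. For 21 of them it lay within 0.5 on the log2 scale.

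**Figure D1:**
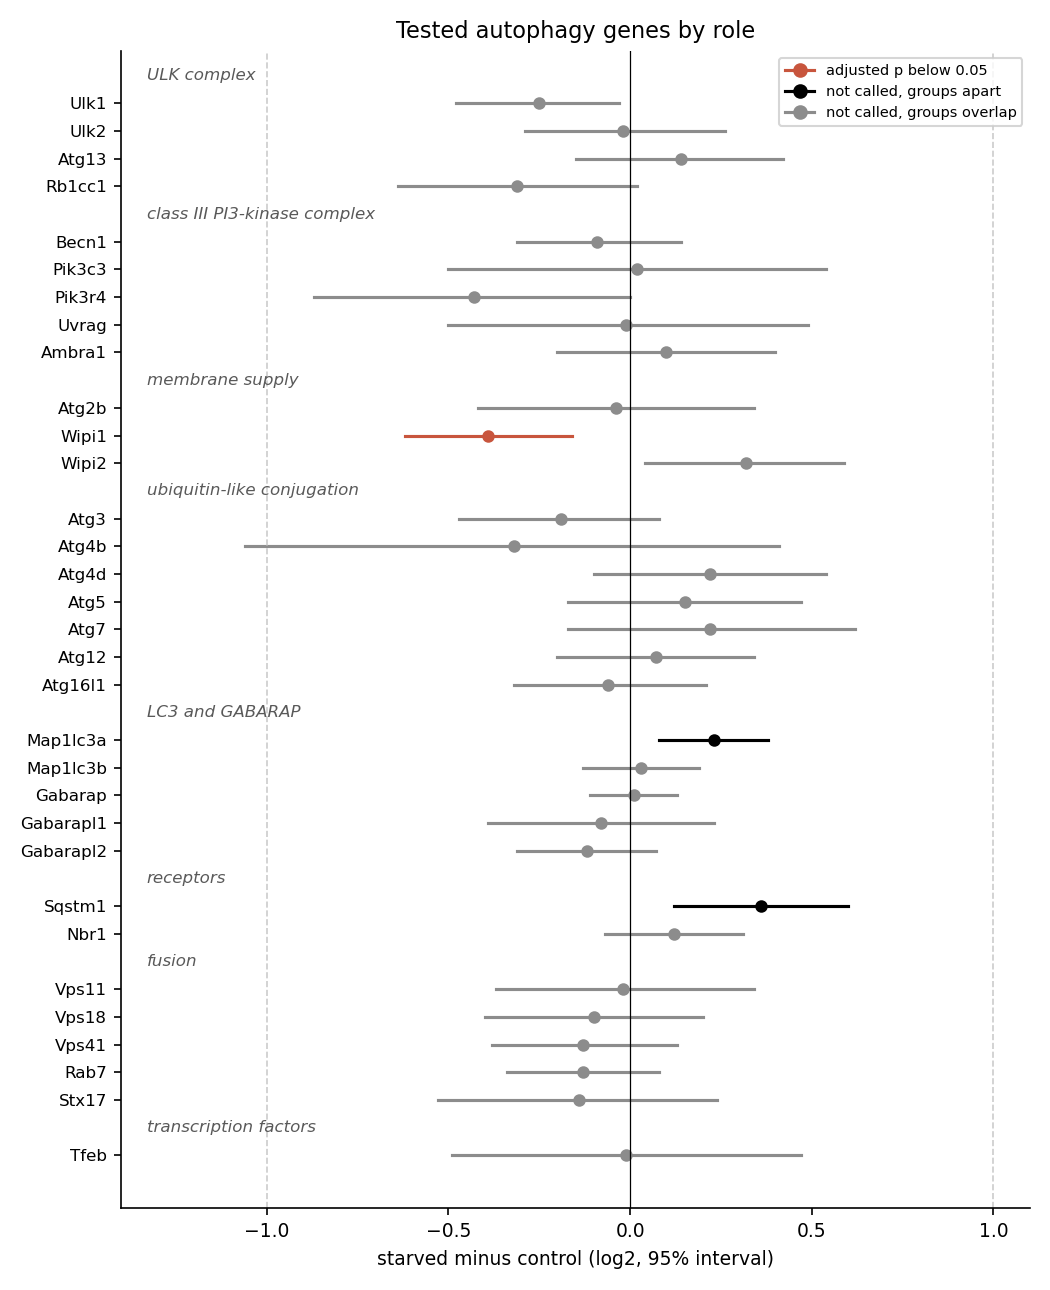
Difference in log2 signal, starved minus control, for the 32 tested autophagy genes grouped by role; points are limma estimates and bars their 95% intervals from 4 arrays per group, and dashed lines mark a 2-fold change. Wipi1 at -0.39 is the called gene, Map1lc3a (0.23) and Sqstm1 (0.36) are not called although their groups do not overlap, and the interval of Atg4b is the one that reaches past a 2-fold change.

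The groups did not overlap for 3 autophagy genes, Wipi1, Map1lc3a and Sqstm1, or 9.38% of those tested, where 18.5% of all tested genes had groups apart. The stretches of genome before the starts of Wipi1 and Sqstm1 are shown here because their groups did not overlap and a window was at hand, and that of Atg3, which encodes the E2-like enzyme for LC3, because it holds the letters bound by the TFEB family of lysosomal and autophagy regulators. They come from RefSeq on GRCm38.p6, run 5' to 3' along each gene and end at the base before its annotated start. Capitals mark GC boxes (GGGCGG or its complement CCGCCC) for Wipi1 and Sqstm1, and the TFEB core TCACGTGA with a second E-box CACGTG for Atg3. The windows are chr11:109611390-109611639 on the minus strand for Wipi1, chr11:50210821-50211070 on the minus strand for Sqstm1 and chr16:45158579-45158828 on the plus strand for Atg3.
Wipi1: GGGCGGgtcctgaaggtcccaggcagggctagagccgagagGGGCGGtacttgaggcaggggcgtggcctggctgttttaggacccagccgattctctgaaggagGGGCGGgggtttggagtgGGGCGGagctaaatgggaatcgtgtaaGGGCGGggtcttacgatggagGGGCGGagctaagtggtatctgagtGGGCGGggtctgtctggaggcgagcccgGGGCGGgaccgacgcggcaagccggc
Sqstm1: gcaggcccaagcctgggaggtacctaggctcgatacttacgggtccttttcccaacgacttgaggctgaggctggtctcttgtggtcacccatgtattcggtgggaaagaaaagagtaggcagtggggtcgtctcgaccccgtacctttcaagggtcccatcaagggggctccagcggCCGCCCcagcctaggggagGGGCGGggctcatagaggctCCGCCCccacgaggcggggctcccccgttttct
Atg3: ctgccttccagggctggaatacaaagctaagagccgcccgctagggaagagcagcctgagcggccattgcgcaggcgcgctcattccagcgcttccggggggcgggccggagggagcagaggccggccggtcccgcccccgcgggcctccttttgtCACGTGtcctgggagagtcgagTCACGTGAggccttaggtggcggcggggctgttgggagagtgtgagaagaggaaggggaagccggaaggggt

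Of the 39 genes 31 had a window of 250 bases in the RefSeq table, 37 windows in all, and Map1lc3a was not among them. The GC box GGGCGG was found in windows of 21 of the 31 genes (62.2% of the windows, against 32.7% of all 32851 windows), 8 times before Wipi1 and 3 times before Sqstm1. The TFEB core TCACGTGA was found for 1 gene, Atg3 (2.7% of the windows against 0.785% of all). The shorter CACGTG, which lies inside it, was found for Atg3, Atg5 and Atg7 (8.11% against 6.02%). TGATGNAAT, the composite element of ATF4, and TGTTTAC, the forkhead element of FoxO factors, were in 0 of the 37 windows, against 0.816% and 3.17% of all windows. Both strands were searched, and a match or its absence in 250 bases is a description of these letters only. Atg3, Atg5 and Atg7 did not pass the test, as given below.

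Among the genes that supply and mark the membrane, Wipi1 fell, and its paralogue Wipi2 had a difference on the other side of 0 that did not pass the test. Wipi1 and Wipi2 encode beta-propeller proteins that read PI3P on the forming membrane, and Wipi2 recruits the Atg16l1 complex. Wipi1 was at 10.29, 9.86, 10.21 and 10.22 in controls A to D and at 9.76, 9.69, 9.81 and 9.74 in starved E to H. All 4 starved arrays lay below all 4 controls, by a small gap to control B and a wider one to the other 3. Wipi1 fell by 0.39 ± 0.10 on the log2 scale, to 0.763 of the control level (limma, adjusted p = 0.0351).

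Wipi1 carried 5 tested probe sets, and in all 5 the fitted difference was below 0, from -0.64 to -0.10, although 1 of them, the brightest, was called. The name of that probe set ends in s_at, which on Affymetrix arrays marks probes that can match more than 1 transcript. Control B was the lowest control in all 5. Without control B, 3 of the 5 probe sets were called lower and the differences ran from -0.87 to -0.38, with -0.48 for the brightest (adjusted p = 0.00321). Among all probe sets 6.23% were called lower with control B and 6.04% without it. With the mean of the 5 probe sets Wipi1 stood at -0.34 and was not called (adjusted p = 0.248). The call was also lost on leaving out control A, C or D, or any single starved array (E, F, G or H), with adjusted p from 0.0585 to 0.103 and differences from -0.41 to -0.34.

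Wipi2 was at 8.56, 8.33, 8.57 and 8.78 in the controls and at 8.88, 9.07, 8.84 and 8.71 in the starved arrays. The groups overlapped through control D and starved H, and the difference of 0.32 ± 0.12 did not pass (adjusted p = 0.15). Within each array the Wipi1 signal exceeded that of Wipi2 by 1.44 to 1.73 in the controls and by 0.62 to 1.03 in the starved arrays, so the gap between these probe sets narrowed without overlap. The change of the gap was -0.71 ± 0.11 (95% interval -0.98 to -0.43). Its two-sided exact permutation p of 0.0286 was the smallest that 4 against 4 arrays allow, and it was 0.206 when adjusted over the 9 pairs compared. At that smallest p a single pair cannot pass after adjustment over 9 pairs. Atg2b, a lipid transfer protein that feeds the growing membrane, stood at -0.04 ± 0.17.

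**Figure D2:**
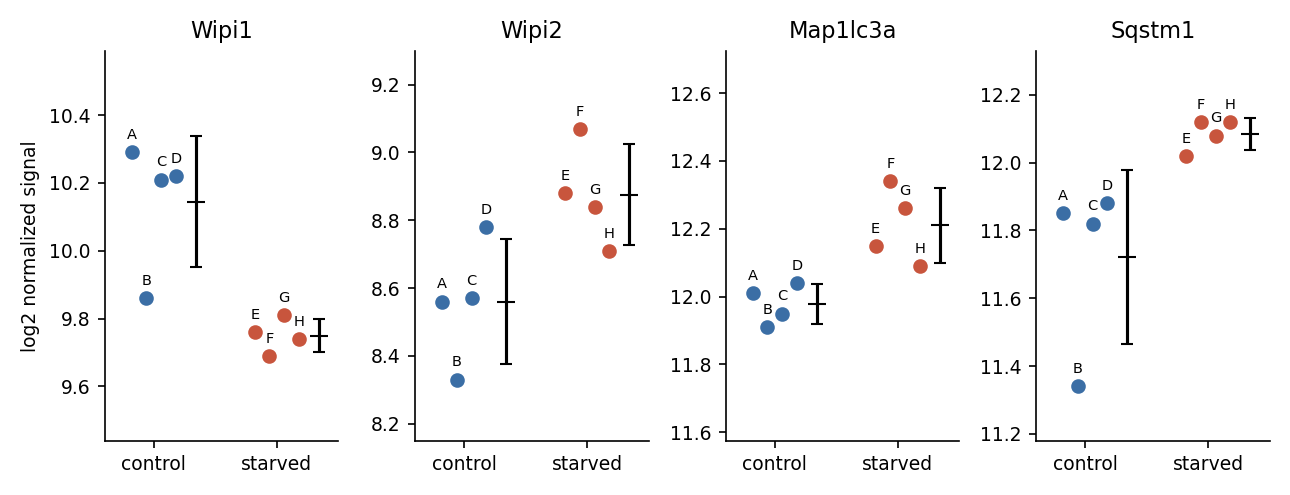
Log2 normalized signal of Wipi1, Wipi2, Map1lc3a and Sqstm1 in each array, lettered A to D for control and E to H for starved, with the mean and SD of each group beside the points and the same span on every vertical axis. Starved arrays lie below the controls for Wipi1 and above them for Map1lc3a and Sqstm1, while Wipi2 overlaps, and control B is the lowest control in all 4 panels.

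The cargo receptor Sqstm1, which encodes p62, a protein that binds ubiquitin and LC3 and is itself degraded by autophagy, was higher in every starved array without passing the test. It was at 11.85, 11.34, 11.82 and 11.88 in the controls and at 12.02, 12.12, 12.08 and 12.12 in the starved arrays. The starved arrays lay close together above all controls, and control B was far below the other 3. The difference was 0.36 ± 0.11, or 1.29-fold (adjusted p = 0.0599). Without control B it was 0.24 ± 0.06 and was called (adjusted p = 0.0236), and in unscaled values it was 0.02 (adjusted p = 0.951). Nbr1, a receptor with the same domain plan, was at 10.09 to 10.32 in the controls and 10.23 to 10.49 in the starved arrays, a difference of 0.12 ± 0.09. The gap between Sqstm1 and Nbr1 changed by 0.24 (95% interval -0.18 to 0.66; exact permutation p = 0.114, adjusted p = 0.206). The other probe set of Nbr1 stood at 0.50 with control B and at 0.25 without it, and neither was called.

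The LC3 and GABARAP genes encode the ubiquitin-like proteins that are attached to the autophagosome membrane. By their brightest probe sets they are the best measured group, with standard errors of 0.05 to 0.14. None of the 5 was called in limma's test, beside 11.2% of all tested genes. Map1lc3a was at 12.01, 11.91, 11.95 and 12.04 in the controls and at 12.15, 12.34, 12.26 and 12.09 in the starved arrays. Every starved array lay above every control, by a small margin between starved H and control D. The difference of 0.23 ± 0.07, or 1.17-fold, stood just outside the threshold (adjusted p = 0.0521). It was called without starved H (0.27, adjusted p = 0.0331) and was -0.12 in unscaled values (adjusted p = 0.602).

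Map1lc3b, the LC3 form most used to follow autophagy, was at 10.69, 10.83, 10.85 and 10.89 in the controls and at 10.77, 10.82, 10.89 and 10.91 in the starved arrays, and these ranges overlapped almost completely. Its difference was 0.03 ± 0.07, with a 95% interval from -0.13 to 0.19. Its other 2 tested probe sets stood at -0.06 and -0.19. Gabarap was at 12.05 to 12.10 in the controls and at 12.01 to 12.12 in the starved arrays, a difference of 0.01 ± 0.05 with an interval from -0.11 to 0.13, the narrowest of the 32 genes. Gabarapl1, which is known as a FoxO3 target in muscle, stood at -0.08 ± 0.14 and Gabarapl2 at -0.12 ± 0.08. The dimmer probe set of Gabarapl1 stood at -0.32 ± 0.17 with overlapping groups and was not called (limma adjusted p = 0.28). The change of the gap between Map1lc3a and Map1lc3b was 0.20 (interval -0.02 to 0.42; exact permutation p = 0.0571, adjusted p = 0.206). The 3 pairs within the GABARAP group differed by 0.04 to 0.13, and their exact p-values ran from 0.114 to 0.771.

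**Figure D3:**
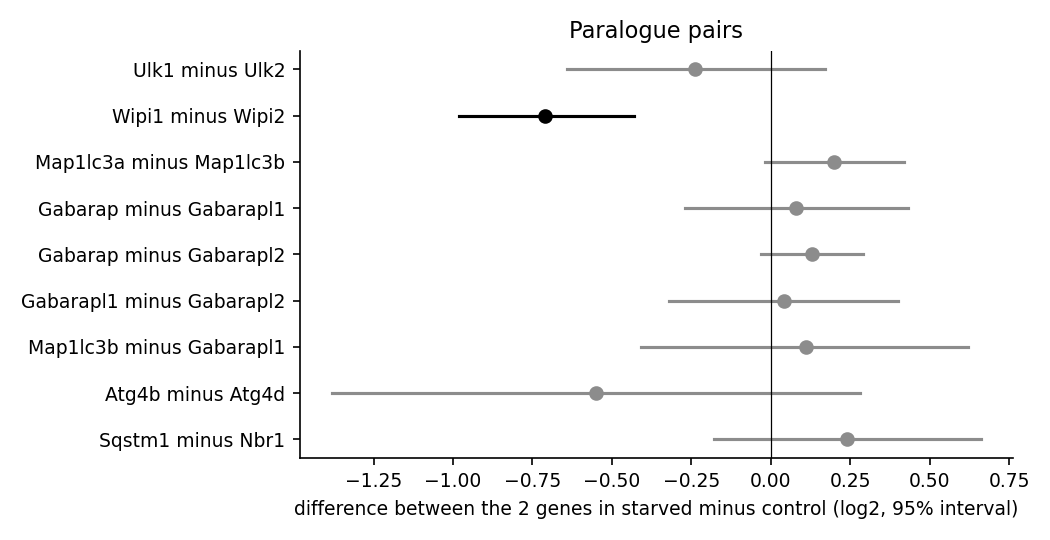
Difference between 2 related genes in their starved minus control change, for the 9 pairs in which both were tested; points are means over 4 arrays per group and bars 95% intervals of the single pair, not adjusted over the pairs. Wipi1 minus Wipi2, at -0.71, is the pair whose within-array gaps did not overlap between groups, and the other 8 intervals include 0.

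The ULK complex, which passes the state of mTORC1 and AMPK to the autophagosome, had 0 of 4 genes called, beside 11.2% of all tested genes. In groups this small a count of 0 does not set a role apart from that share. Ulk1, the kinase itself, was at 9.37, 9.02, 9.22 and 9.36 in the controls and at 9, 8.97, 9.02 and 8.97 in the starved arrays. The starved arrays lay at the level of control B and below the other 3 controls. The difference was -0.25 ± 0.10 (adjusted p = 0.159; -0.33 and adjusted p = 0.0523 without control B). The dimmer probe set of Ulk1 stood at 0.48, with control B at 5.02 against 6.93 to 7.98 in the other controls, and at -0.13 without control B. The second probe set of Atg13, the adaptor of the complex, likewise moved from 0.46 to 0.13 without that array, where control B was at 6.52. Ulk2 (-0.02 ± 0.12) and the scaffold Rb1cc1, also called FIP200 (-0.31 ± 0.15, adjusted p = 0.243), did not pass.

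In the class III PI3-kinase complex 0 of 5 genes were called, beside 11.2% of all tested genes. Becn1, the subunit that links the lipid kinase to its regulators, was at 9.63, 9.69, 9.92 and 9.98 in the controls and at 9.61, 9.74, 9.81 and 9.72 in the starved arrays, which overlapped throughout. Its difference was -0.09 ± 0.10 (adjusted p = 0.667), and all 4 of its tested probe sets lay between -0.19 and -0.04. Pik3r4, the regulatory subunit Vps15, had the lowest value of the 32 genes at -0.43 ± 0.20 (adjusted p = 0.212). It was dim and spread from 6.76 to 7.61 in the controls against 6.71 to 6.95 in the starved arrays. The lipid kinase Pik3c3 (0.02 ± 0.24), the Becn1 partner Uvrag (-0.01 ± 0.22) and Ambra1 (0.10 ± 0.14) did not pass.

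The conjugation enzymes had 0 of 7 tested genes called, beside 11.2% of all tested genes. Atg3 was at 10.11, 10.48, 9.96 and 10.05 in the controls and at 10.18, 9.87, 9.92 and 9.86 in the starved arrays. Control B was the highest array and starved E lay among the controls, and the difference was -0.19 ± 0.12 (adjusted p = 0.375). In unscaled values, where the median difference of all tested probe sets was -0.33, Atg3 passed the test as lower (-0.59, adjusted p = 0.0463). The E1-like enzyme Atg7 (0.22 ± 0.18), the Atg12 acceptor Atg5 (0.15 ± 0.14), Atg12 itself (0.07 ± 0.12) and Atg16l1 (-0.06 ± 0.12) did not pass. The LC3 protease Atg4b had the widest interval, -1.06 to 0.41 around -0.32, with starved H at 6.78 against 8.19 to 8.72 in the other starved arrays. Without starved H its difference turned to 0.08 ± 0.17 (limma, adjusted p = 0.831). Its other probe set stood at 0.11, and the related protease Atg4d at 0.22 ± 0.14.

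By their brightest probe sets all 5 fusion genes had differences below 0, from -0.14 to -0.02. Of all 8352 tested genes 3988 had differences below 0. Of the 5 genes 0 were called, beside 11.2% of all tested genes. Rab7, the GTPase of late endosomes and lysosomes, was at 11.31, 11.61, 11.33 and 11.18 in the controls and at 11.32, 11.15, 11.32 and 11.12 in the starved arrays, which overlapped. Its difference was -0.13 ± 0.10 (adjusted p = 0.462) and its other probe set stood at 0.17. Unscaled, Rab7 passed the test as lower (-0.49, adjusted p = 0.0474). The tether subunits Vps11 (-0.02 ± 0.16), Vps18 (-0.10 ± 0.14) and Vps41 (-0.13 ± 0.12) did not pass. The dimmest tested probe sets of Vps18 and Vps41 stood at 0.14 and 0.20. That of Vps11 stood at -0.34 ± 0.16 and was not called (limma adjusted p = 0.226). Stx17, the autophagosomal SNARE, had tested probe sets at -0.14 ± 0.17 and -0.12.

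Of 68 autophagy probe sets 13 were too dim to be tested, and in 1 of these the groups did not overlap. Among all tested genes 18.5% had groups apart, and the share among all dim probe sets was not counted. It belongs to Stx17 and was at 6.76, 6.83, 6.18 and 7.08 in the controls and at 4.96, 5.68, 6.11 and 4.72 in the starved arrays, with deposited intensities of 13.6 to 150. The difference was -1.35 ± 0.34, with an adjusted p of 0.0465 when limma was run without a brightness filter. The other dim probe set of Stx17 stood at -0.64 with overlapping groups, and the gene is represented by its brightest probe set.

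Tfeb, the transcription factor that drives lysosomal and autophagy genes when it enters the nucleus, was at 8.64, 7.52, 8.37 and 8.04 in the controls and at 8.37, 7.86, 8.24 and 8.07 in the starved arrays. The starved arrays lay inside the spread of the controls. The difference was -0.01 ± 0.22, with a 95% interval from -0.49 to 0.47.

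**Figure D4:**
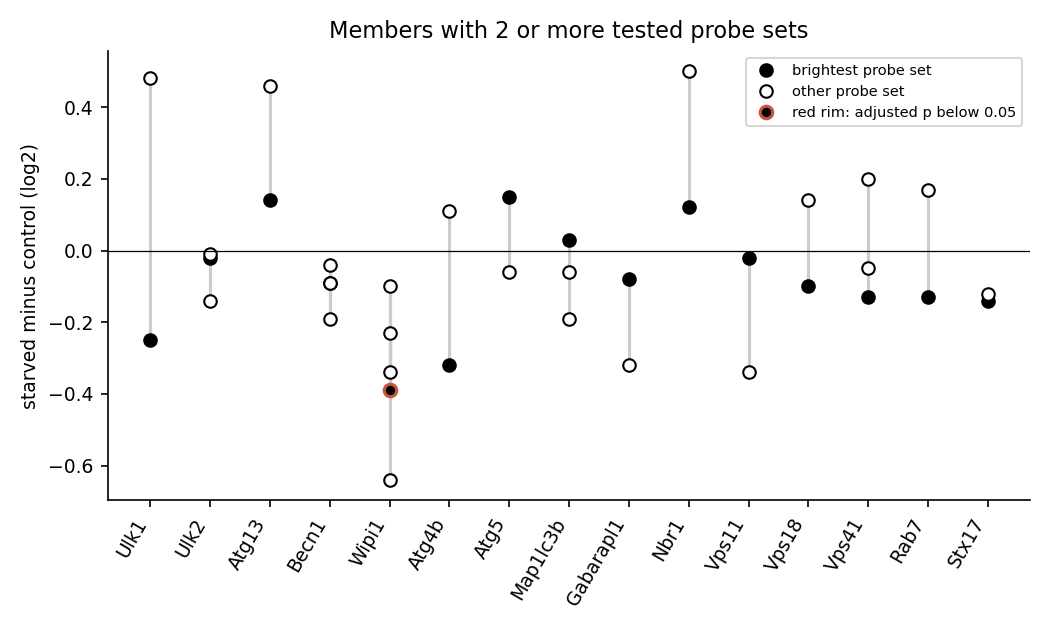
Starved minus control difference in log2 signal for every tested probe set of the 15 autophagy genes that have 2 or more; filled points are the brightest probe sets, open points the others, and a red rim marks an adjusted p below 0.05. In 8 of the 15 genes all probe sets lie on 1 side of 0, all 5 of Wipi1 lie below it, and those of Ulk1 range from -0.25 to 0.48.

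Probe sets of the same gene did not always give the same difference, and why they differed was not tested. Of 15 genes with 2 or more tested probe sets, 8 had all of them on 1 side of 0. The share among all genes was not counted. Control B was the control farthest from the other 3 in 26 of the 55 tested autophagy probe sets (47.3%), as in 39% of all tested probe sets. Without control B, 1 of 32 autophagy genes was called higher, Sqstm1, and 1 lower, Wipi1, beside 4.44% and 6.31% of all genes.

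Genes that work beside the 39 were examined as a list of 42 other autophagy genes. Like the 39, they were chosen with earlier results of these data known, so the shares called are descriptions only. Of the 42 genes 30 could be tested. Of these 2 rose, 5 fell and 23 did not pass (23.3% called, median -0.02), beside 11.2% called among all tested genes (4.25% higher, 6.93% lower; median 0.01). The ubiquitin-binding receptor Tax1bp1 rose by 0.52 ± 0.14 (adjusted p = 0.0348) and Phb2, an inner membrane protein of mitochondria that can act as a mitophagy receptor, rose by 0.42 ± 0.09 (adjusted p = 0.0158). Neither was called in unscaled values, at 0.13 and 0.04 (adjusted p = 0.699 and 0.9), or with median centring, at 0.45 and 0.35 (0.117 and 0.102). Tax1bp1, called in 8 of 19 alternatives, also missed the threshold with 75th percentile centring (adjusted p = 0.0656), without a brightness filter (0.0501) and without an intensity trend (0.0616). Vamp8, the SNARE that pairs with Stx17, was at 9.48, 9.79, 9.63 and 9.73 in the controls and at 9.12, 8.48, 9.14 and 9.26 in the starved arrays. It fell by 0.66 ± 0.16 (adjusted p = 0.0246), with all starved arrays below all controls.

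The ubiquitin adaptor Tollip fell by 0.58 ± 0.13 (adjusted p = 0.013), Vmp1, a membrane protein of the endoplasmic reticulum needed to form autophagosomes, fell by 0.48 ± 0.10 (adjusted p = 0.00908) and the mitochondrial kinase Pink1 fell by 0.45 ± 0.10 (adjusted p = 0.0162). Retreg1, a receptor for autophagy of the endoplasmic reticulum, fell by 0.36 ± 0.09 (adjusted p = 0.029). The calls of Tollip and Vmp1 rest on the brighter of 2 probe sets. Their others stood at 0.05 and 0.19, and the means of both, at -0.26 and -0.14, were not called (adjusted p = 0.144 and 0.351). Leaving out single arrays ended the call of Pink1 without starved F (adjusted p = 0.0523), of Vamp8 without control C or D (up to 0.066), of Retreg1 without control A, B or D or starved E or G (up to 0.0775, and 0.0779 with all arrays but no intensity trend) and of Tax1bp1 without control A or C or any starved array (up to 0.0899).

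**Figure D5:**
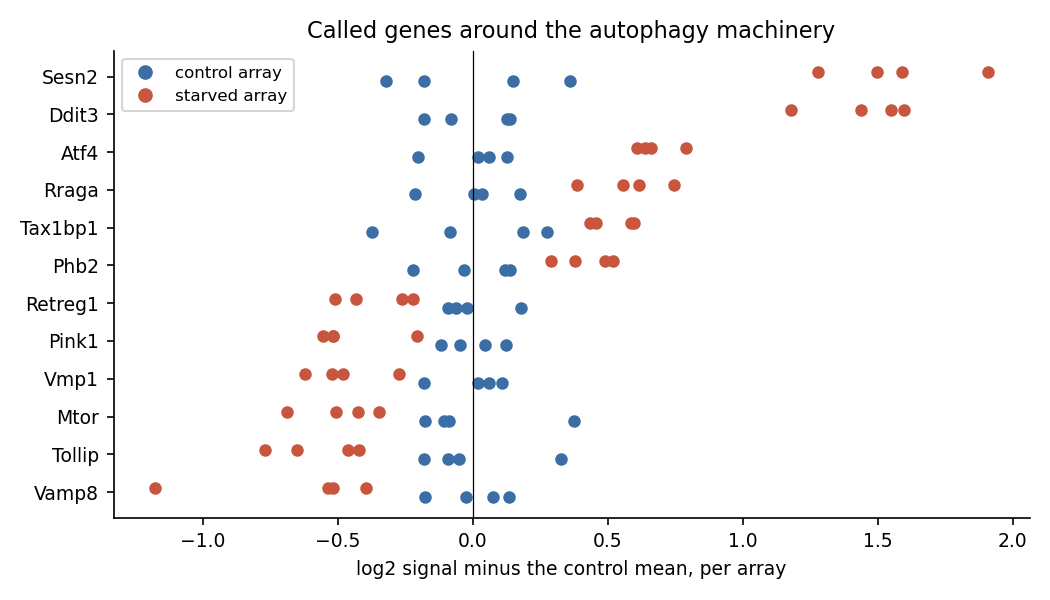
Log2 signal of each array minus the mean of the 4 control arrays, for the 12 called genes among the other autophagy genes and the upstream regulators. Blue points are control arrays and red points starved arrays, and the groups do not overlap for any of the 12, which were chosen for being called. Each gene is shown by its brightest tested probe set, on which Sesn2 and Ddit3 lie more than 1 above the control mean in every starved array.

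Upstream regulators were a list of 26 kinases, nutrient sensors and stress factors that act on the machinery, also chosen with earlier results of these data known. Of the 26 genes 20 were tested, and by their brightest probe sets 4 rose, 1 fell and 15 did not pass. The share called was 25% (median -0.03), a description beside the same 11.2% of all tested genes. Sesn2, a leucine sensor that restrains mTORC1, was at 6.59, 6.73, 7.27 and 7.06 in the controls and at 8.50, 8.41, 8.82 and 8.19 in the starved arrays. It rose by 1.57 ± 0.19, or 2.97-fold (adjusted p = 0.000275). Its other probe set, of nearly the same brightness, rose less, by 0.61 ± 0.16, or 1.53-fold (adjusted p = 0.0316). The mean of both stood at 1.09. The stress factors Ddit3 (1.44 ± 0.12) and Atf4 (0.67 ± 0.08) also rose, as did Rraga, a Rag GTPase that brings mTORC1 to the lysosome (0.58 ± 0.12, adjusted p = 0.00973). Mtor, the kinase that holds the ULK complex inactive in fed cells, fell by 0.49 ± 0.13 (adjusted p = 0.0347). Its other probe set stood at 0.14, and the mean of both at -0.17 was not called (adjusted p = 0.324). Its call was also lost without control A or C or starved F, G or H (adjusted p up to 0.0798) and without an intensity trend (0.0648). In unscaled values the calls of Atf4 (0.32, adjusted p = 0.178) and Rraga (0.21, adjusted p = 0.565) were lost, and those of Sesn2 (1.23) and Ddit3 (1.07) were kept. The AMPK kinase Stk11 (0.16 ± 0.10) and the transcription factors Foxo1 (-0.18 ± 0.12) and Foxo3 (-0.10 ± 0.14) did not pass. Deptor did not pass by its brightest probe set either (-0.40 ± 0.13, adjusted p = 0.0828). Its next brightest was called lower, at -0.71 ± 0.10 with groups apart (adjusted p = 0.000688). The dimmest tested probe set of Deptor stood at 0.02 ± 0.43, with control B at 7.11 against 9.19 to 9.45 in the other controls.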

How the data were processed

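RNA of 4 control and 4 starved C2C12 myotube samples was hybridised to Affymetrix mouse arrays, 1 array per sample. The deposited table holds linear intensity values, 1 per probe set and array. The authors' software and scaling of these intensities are not stated in the labels used, and the trimmed means differed by more than 5% from the median, so the arrays were scaled. An offset of 10.9 (the 10th percentile) was added to the deposited values, log2 was taken, and arrays were quantile normalized. The 64 control probe sets were then dropped. A probe set was tested if its mean exceeded log2 6.61, the 40th percentile. Adding an offset understates changes of dim genes.

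Groups were compared with limma 3.58.1 in R 4.3.3 (lmFit, eBayes with an intensity trend, Benjamini-Hochberg), after tests on simulated data. There 24.2% of 99 probe sets changed by 0.5 on the log2 scale were recovered, and 82.8% of 87 changed by 1. Fewer probe sets were changed there than were called here, so these shares are a rough guide. A change of 0.5 or less can go uncalled. Related genes were compared by exact permutation of the 70 labellings, and their 95% intervals use the pooled spread with 6 degrees of freedom. Genes were named through the 2016 platform annotation. The 39 genes, the lists, the pairs and the rule for named genes (called, called in an alternative, groups apart, or brightest of a role, and called genes of other lists) were chosen with earlier results of these data known. Alternatives changed scaling, offset, brightness filter, variance prior, array weights and probe set choice, or left out an array. Python 3.11.15 with matplotlib 3.10.9 made the figures. The number of arrays limits the precision.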

Additional observations from a re-analysis of the deposited data

Results flagged for a closer look

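Within groups of 4 arrays, 66 sets of values were examined for a single array far from the other 3, where chance flags about 1 in 20, and 2 stood out. In Sqstm1 control B was at 11.34 against 11.82 to 11.88 in the other controls, a gap of 0.895 of the whole range. The Gapdh 3' to 5' log2 ratio of control B was 1.4 against -0.22 to -0.12 in the other controls, a gap of 0.938 of the range. Both concern the same array, and the difference of Sqstm1 without it was 0.24 (limma, adjusted p = 0.0236).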

How the results depend on the processing

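Of 19 alternatives, Wipi1 was called lower in 10, Map1lc3a higher in 4 and Sqstm1 higher in 3. Unscaled values gave 45 genes higher and 1027 lower in the whole table, 3 autophagy genes lower (Wipi1, Atg3 and Rab7) and a median autophagy difference of -0.37 beside -0.34 for all genes, with Map1lc3a at -0.12 and Wipi2 at -0.05. Median centring gave 217 genes higher, and 75th percentile centring put Tfeb at 0.01. The number of autophagy genes called higher was 2 with a filter at the 60th percentile, 2 with array weights and 1 with the mean of probe sets. The number called lower was 0 without an intensity trend and 0 with the mean of probe sets, which also put Ulk1 at 0.11 and Rab7 at 0.02. Leaving out single arrays gave 226 (without starved F) to 370 genes higher and 437 to 541 lower in the whole table. It gave 0 to 1 autophagy genes higher, 0 to 1 lower, and Tfeb from -0.22 to 0.16. The log2 difference in array brightness ran from -0.49 to -0.29, with exact p from 0.0571 to 0.171. No gene pair passed after adjustment in any alternative (0 of 9). With so few arrays a single pair cannot reach the threshold after adjustment, so this count does not test any one pair. No paired analysis was possible because the replicate letters of the groups differ. Causes of these shifts were not tested. Small changes of dim genes are limited by the spread between 4 arrays.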
